A study of Mus musculus with 11 samples.

Results

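Peaks of acetylated histone and of cohesin were examined at 3 stretches of the mouse genome named for the microRNA genes they are held to carry in mm9, Mir142, the pair Mir181a-1 and Mir181b-1, and Mir17hg. The peaks were chosen by position alone, as every peak of the 6 deposited lists that overlapped chr11:87540000-87610000 (Mir142, 70001 bp), chr1:139780000-139930000 (Mir181a-1 and Mir181b-1, 150001 bp) or chr14:115390000-115490000 (Mir17hg, 100001 bp) by at least 1 bp, in mouse build mm9. They numbered 119 of the 120616 peaks in the 6 lists, of which 87 lay in the Mir181a-1 and Mir181b-1 window, 28 in the Mir142 window and 4 in the Mir17hg window. The windows had been proposed with results of these data known, and peak calls define the members, so the numbers of peaks describe the windows and support nothing on their own.

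Chromatin immunoprecipitation and sequencing (ChIP-seq) was done on sorted CD4+ CD8+ double positive thymocytes, the stage at which T cell precursors carry both coreceptors, from mice aged 6 weeks. Histone H3 acetylated on lysine 27 (H3K27ac), which marks promoters and enhancers in use, was mapped in 2 wild-type (WT) libraries and 2 libraries of Rad21 -/- cells (KO), and Smc1a in 2 WT libraries. The KO cells came from mice that combine a floxed Rad21 allele with a Cre transgene driven by Cd4, and the controls were littermates. Which alleles the littermates carry is not stated in the labels. The Cd4 promoter becomes active at about the double positive stage, which is the stage sorted. The labels also do not say whether replicates were taken from different animals, so the spread between them may be technical. Peak lists do not check the deletion of Rad21, and without a gene annotation of mm9 the cell type was not checked against its marker genes.

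Cohesin is a ring built of Smc1a, Smc3, the kleisin Rad21 and a Stag subunit. It extrudes and holds loops of chromatin, often between sites bound by CTCF, and it can also bring enhancers close to promoters. MicroRNAs are cut from hairpins in longer transcripts, and bases 2 to 8 of the mature strand, the seed, pair with target messenger RNAs. The microRNA of Mir142 is abundant in all blood cell lineages. That of Mir181a-1 is known in double positive thymocytes for raising the sensitivity of T cell receptor signalling, through repression of phosphatases that damp it. Mir17hg is the host transcript of the miR-17 to miR-92a cluster, which promotes survival and proliferation of lymphocytes.

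The mature strands of the named genes are printed to show which of their products share a seed, and with it predicted targets. All 9 microRNA genes looked for were found in RefSeq sequences of build GRCm38.p6, with 17 mature strands and 14 distinct seeds. The 10 strands below are both arms of Mir142, the 5p arms of the Mir181 pair and 1 arm of each gene of the Mir17 cluster, with the seed in capitals.
miR-142a-5p: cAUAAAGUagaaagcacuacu
miR-142a-3p: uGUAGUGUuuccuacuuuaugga
miR-181a-5p: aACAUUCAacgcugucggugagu
miR-181b-5p: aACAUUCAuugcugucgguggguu
miR-17-5p: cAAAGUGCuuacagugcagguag
miR-20a-5p: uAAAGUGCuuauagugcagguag
miR-18a-5p: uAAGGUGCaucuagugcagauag
miR-19a-3p: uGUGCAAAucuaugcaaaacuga
miR-19b-3p: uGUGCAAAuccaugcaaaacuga
miR-92a-3p: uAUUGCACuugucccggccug

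The 5p products of Mir181a-1 and Mir181b-1 have the seed ACAUUCA in common and are identical at 20 of the 23 positions they share. They differ by A9U, C10U and A21G, counted from the 5′ end with the base of miR-181a-5p first, so all 3 changes lie outside the seed. The same seed is made by 4 further genes, Mir181a-2, Mir181b-2, Mir181c and Mir181d, and the 5p strand of Mir181a-2 is identical to that of Mir181a-1. In the Mir17 cluster, miR-17-5p and miR-20a-5p have the seed AAAGUGC, which Mir106a, Mir106b, Mir93 and Mir20b also carry, and miR-19a-3p and miR-19b-3p have the seed GUGCAAA. In GRCm38.p6 the nearest protein-coding genes are Supt4a and Tspoap1 beside Mir142, Nr5a2 and Ptprc beside Mir181a-1, and Slitrk5 and Gpc5 beside Mir17hg. Hairpins and genes were not placed on mm9 here, so no peak below is assigned to a promoter, exon or intron, and microRNA levels were not measured.

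Called H3K27ac peaks covered between 45.6 Mb (WT replicate 2) and 56.3 Mb (WT replicate 1) per list, with 47.6 Mb in KO replicate 2 and 52.7 Mb in KO replicate 1. The lists held 15686 to 21973 H3K27ac peaks and 25484 and 17726 Smc1a peaks. The score of a peak is the authors' value from their peak caller, starts at about 50 and is tied at 3100 for many of the strongest H3K27ac peaks. The score ranks peaks within a list. Scores of several libraries are printed side by side below, but they are not scaled between lists, so their differences between libraries are not interpreted. The lists give no reads, so depth is unknown. Where a list has no peak, the mark was not called, which does not show that it was absent.

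**Figure D1:**
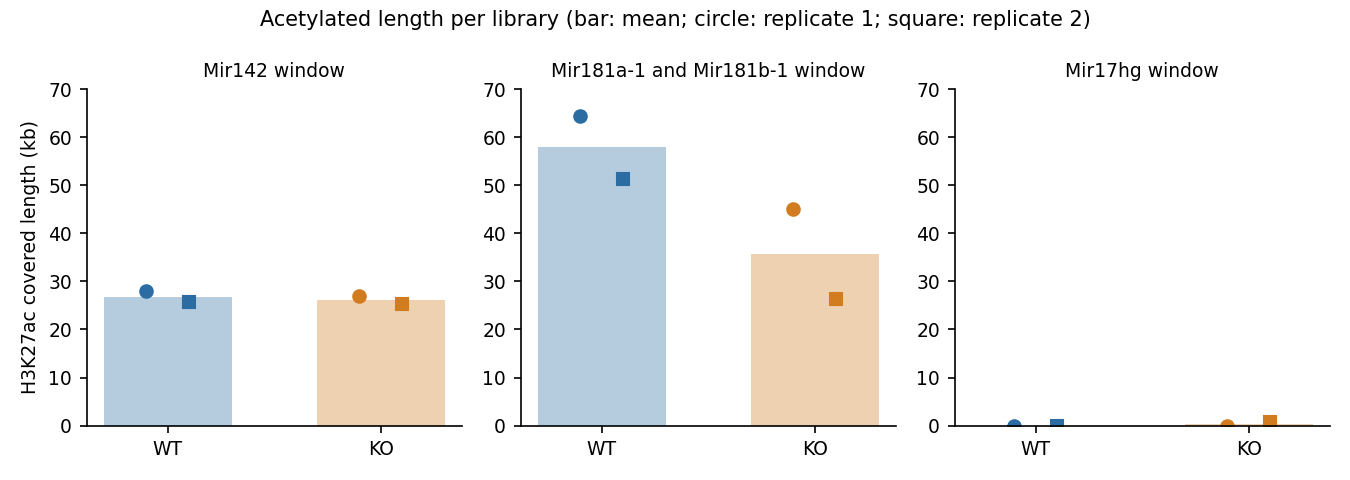
Length of each window covered by H3K27ac peaks (kb, vertical axis) in WT and KO libraries, with bars for the mean of 2 libraries and points for each library. The Mir142 libraries lie close together, both KO libraries lie below both WT libraries in the Mir181a-1 and Mir181b-1 window, and the Mir17hg window is at or near 0.

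The acetylated stretch of the Mir181a-1 and Mir181b-1 window was shorter in sum and more broken up in the KO libraries than in the WT libraries. H3K27ac peaks covered 64464 bp of the window in WT replicate 1, 51380 bp in WT replicate 2, 45041 bp in KO replicate 1 and 26424 bp in KO replicate 2. The groups did not overlap, and KO replicate 2 was the lowest. Its list covers more of the genome than that of WT replicate 2, and it has the shortest median peak of the H3K27ac lists (1852 bp). The part of such list differences in the covered length here was not tested. The means were 57922 ± 9252 bp in WT and 35732.5 ± 13164 bp in KO (SD, n = 2 each), so the KO mean was 61.7% of the WT mean. The difference was -22189.5 bp, with an exact two-sided permutation p of 0.333, the smallest that 2 libraries against 2 can give. It was -12881 bp without KO replicate 2 and -31498 bp without KO replicate 1, so its size depended on which KO library was kept. In chromatin from many cells, fewer cells with the mark and less of it per cell cannot be told apart.

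When the genome was divided into tiles of the same length, 6920 tiles held a peak of at least 1 library. Both KO libraries lay below both WT libraries in 14% of them and above in 24%. Over the 5378 tiles with a peak in all 4 libraries, the median KO mean was 102% of the WT mean, and 3.05% of tiles had a lower ratio than the Mir181a-1 and Mir181b-1 window. The window also held much acetylation, since 59 of the 6920 tiles had a greater mean covered length over the 4 libraries. The median tile had a mean covered length of 4049 bp, against 46827 bp in the window. Most tiles are thus unlike the window, and its ratio was not compared with that of tiles of similar coverage.

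Peak numbers did not follow the covered length. The window held 20 and 12 H3K27ac peaks in WT and 21 and 14 in KO libraries, which overlap (exact two-sided permutation p = 0.667). The peaks were narrower in KO, with median lengths of 1205 and 1102 bp, against 2187.5 and 2329.5 bp in WT. From the first to the last acetylated base the stretch spanned 79411 and 68630 bp in the WT libraries, and 75579 and 78548 bp in the KO libraries. Peaks filled 81.2% and 74.9% of that span in WT, 59.6% in KO replicate 1 and 33.6% in KO replicate 2. The longest gap between peaks was 4606 and 6106 bp in WT, 7259 bp in KO replicate 1 and 24222 bp in KO replicate 2. That widest gap lay at the right end of the KO replicate 2 stretch, before a last peak of 695 bp with a score of 51.2, close to the lowest of its list. Without the last peak of each library the spans were 74445 and 67319 bp in WT, 69169 bp in KO replicate 1 and 53631 bp in KO replicate 2, whose longest gap was then 7280 bp. The reach of the stretch in KO replicate 2 thus rests on 1 weak call. Peaks then filled 82.6% and 74.8% of the span in WT and 63.7% and 48.0% in KO libraries, so both KO values stayed below both WT values.

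Overlapping or touching H3K27ac peaks of the 4 libraries were merged into regions, which gave 17 regions in this window. The longest, chr1:139792082-139812796 (20715 bp), ranked 97th by length among the 24430 regions of the genome. A single peak covered 20604 bp of it in WT replicate 1 and 20715 bp in WT replicate 2. In KO replicate 1 it was called as 3 peaks with 18811 bp and in KO replicate 2 as 3 peaks with 14604 bp. Its strongest peak reached the tied score of 3100 in all 4 libraries, so the left part of the region ranked among the highest peaks of every list. The KO peak with that score ended before the WT peak did, at 139804338 in KO replicate 1 and 139804100 in KO replicate 2, against 139812743 and 139812796 in WT. The next KO peak began close by, at 139804369 in KO replicate 1 and 139804227 in KO replicate 2. The last of the 3 peaks ended at 139812753 and 139811334, so the earlier end is in part a split of the call.

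The next longest region, chr1:139822017-139831788 (9772 bp), differed most between the KO libraries. Peaks covered 9724 and 7976 bp in WT, 7490 bp in KO replicate 1 and 741 bp in KO replicate 2. Its best scores were 554.14 and 558.3 in WT, 363.14 in KO replicate 1 and 59.73 in KO replicate 2, where the call was close to the lowest score of the list. In KO replicate 2 this region was thus kept by a single weak peak.

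All 7 regions of the window that had a peak in all 4 libraries had a shorter covered length in each KO library than in each WT library. KO means ran from 45.8% to 80.9% of the WT mean in these 7. Over the 12129 regions of the genome with a peak in all 4 libraries, 22.9% had both KO libraries below both WT libraries and 17.4% the reverse. The 7 regions are neighbours within 55813 bp and were called from the same libraries, so they are not independent of each other.

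The remaining 10 regions were 780 to 3050 bp long and all lay to the right of these 7. The region chr1:139857986-139859400 (1415 bp) was the only one with a call in each WT library and none in KO, with scores of 101.7 and 63.16. The region chr1:139868613-139871662 (3050 bp) was covered over 2938 bp in WT replicate 1 and 695 bp in KO replicate 2, with no peak in the other libraries. WT replicate 1 and KO replicate 1 called chr1:139849145-139850460 (1316 bp), over 1272 and 991 bp. Both WT libraries and KO replicate 1 called chr1:139851187-139853489 (2303 bp) and chr1:139859435-139860982 (1548 bp), and KO replicate 2 called neither. The other 5 regions were under 1000 bp and were each called in 1 library, 3 of them in WT replicate 1 alone and 2 in KO replicate 1 alone. Of all regions of the genome, those with a peak from no library but WT replicate 1 made up 10.5%, and for KO replicate 1 the share was 2.89%. Regions called in both WT libraries and KO replicate 1 but not in KO replicate 2 made up 2.68%.

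**Figure D2:**
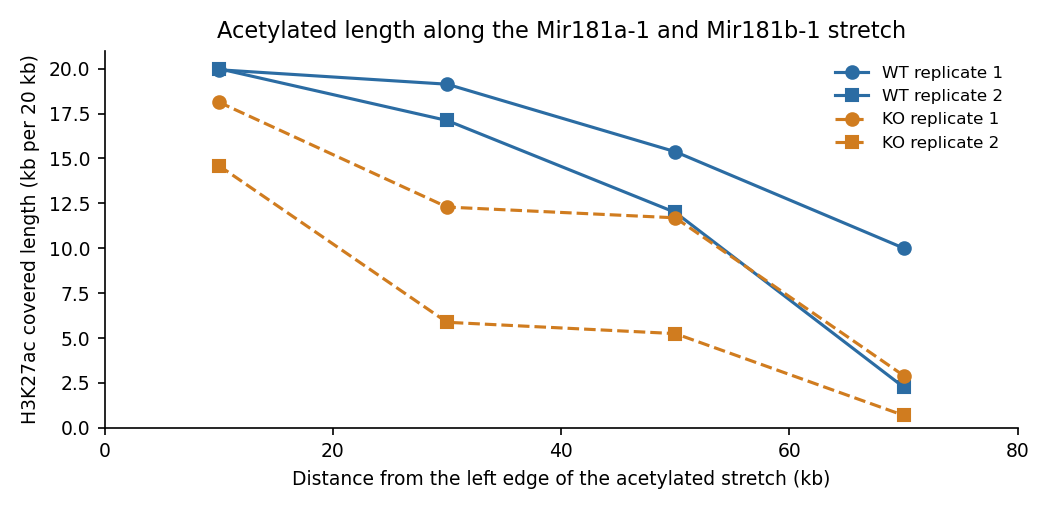
Length covered by H3K27ac peaks in each 20 kb step (kb, vertical axis) against distance from the left edge of the acetylated stretch (kb), 1 line for each library. The libraries are closest together in the first step, and WT replicate 2 and KO replicate 1 meet in the last steps.

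Taken in steps of 20 kb from the left edge, chosen after the values were seen, both KO libraries lay below both WT libraries in the first 3 steps and the groups overlapped in the last. The share of genome steps of 20 kb with such a pattern is not given here, so the count of steps only describes this stretch. In the first step the WT libraries had 19942 and 20000 bp under peaks, and the KO libraries 18139 and 14604 bp. In the next step WT had 19137 and 17116 bp, and KO had 12295 and 5878 bp, so the KO mean was 50.1% of the WT mean, against 82.0% in the first step. Between 40 and 60 kb, WT libraries had 15376 and 11996 bp and KO libraries 11696 and 5247 bp, with 300 bp between WT replicate 2 and KO replicate 1 and a KO mean at 61.9% of the WT mean. In the last step WT libraries had 10009 and 2268 bp and KO libraries 2911 and 695 bp, so KO replicate 1 lay above WT replicate 2. The KO mean was 29.4% of the WT mean there, the lowest of the 4 steps, and the WT mean rested mostly on replicate 1.

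Cohesin in WT cells was concentrated at the left end of this stretch. The window held 7 reproducible Smc1a sites, defined as merged Smc1a regions with a peak of both replicates, and 6 of them lay in the first 20 kb, within the longest acetylated region. The strongest in both lists was chr1:139796558-139797996 (1439 bp), with scores of 609.54 and 913.65. Beside it lay chr1:139794457-139795933 (1477 bp, scores 454.94 and 432.02) and chr1:139798544-139799878 (1335 bp, best scores 172.95 and 319.29). The next sites to the right were chr1:139801959-139802820 and chr1:139803012-139803878, with scores of 51.69 to 233.65. These 5 sites were acetylated over their whole length in all 4 libraries. The sixth, chr1:139810836-139811495 (660 bp, scores 59.05 and 84.94), was so in 3 libraries and over 499 bp in KO replicate 2. The seventh site, chr1:139843169-139843849 (681 bp, scores 109.53 and 68.74), stood alone in the right part. It was acetylated over its whole 681 bp in both WT libraries, over 292 bp in KO replicate 1 and over 0 bp in KO replicate 2, whose nearest peak lay 171 bp away.

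Bases under Smc1a sites kept their H3K27ac call in KO more often than the other bases of this stretch. Both WT libraries covered 50475 bp of the window, of which KO replicate 1 covered 80.0% and KO replicate 2 covered 47.0%. Of the 7321 bp under reproducible Smc1a sites, the KO libraries covered 94.7% and 88.5%, and of the 43154 bp away from them 77.6% and 40.0%. Over the genome the same shares were 95.9% and 92.5% under sites and 91.7% and 83.9% away from them, so KO replicate 2 had the lower share in each case. Bases of a region are not independent, and most sites lie where the strongest peak is. The part of peak strength or of position in this contrast was not tested. The share of WT bases of the whole window kept in KO also depended on the lists used. With the upper 75% of each list by score it was 66.0% in KO replicate 1 and 41.6% in KO replicate 2. With WT replicate 1 alone defining the bases it was 66.0% and 39.7%, and with WT replicate 2 alone 79.3% and 46.8%.

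Acetylation at Mir142 was covered to nearly the same extent in both genotypes. H3K27ac peaks covered 27932 bp of the window in WT replicate 1, 25734 bp in WT replicate 2, 26964 bp in KO replicate 1 and 25202 bp in KO replicate 2. The groups overlapped, with means of 26833 ± 1554 bp in WT and 26083 ± 1246 bp in KO (SD, n = 2 each). The difference of -750 bp was smaller than the spread between libraries of a genotype (exact two-sided permutation p = 0.667). It was 349 bp without WT replicate 1 and 131 bp without KO replicate 2, so its sign is not settled. Each of the 4 libraries had 3 peaks here. Among 10595 genome tiles of this length with a peak, both KO libraries lay below both WT libraries in 14.8% and above in 22.8%, and 172 tiles had a greater mean covered length.

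**Figure D3:**
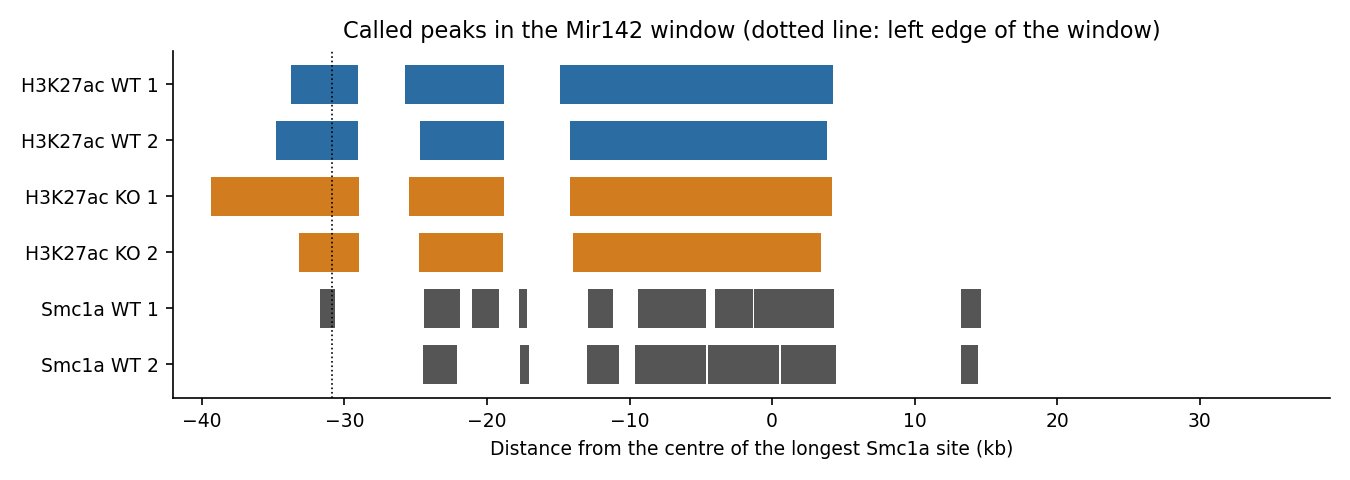
Called peaks of the 6 libraries in the Mir142 window, each block a peak, by distance in kb from the centre of the longest Smc1a site. Only peaks that overlap the window are drawn, at their full length. Peaks wholly to the left of the window are left out, so the longer left block of KO replicate 1 has no counterpart drawn for the other libraries. All 4 H3K27ac libraries show 3 blocks with nearly the same limits on the right, Smc1a peaks fill most of the rightmost block, and 1 Smc1a site lies beyond it.

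The longest acetylated region of this window, chr11:87556036-87575178 (19143 bp), ranked 117th by length in the genome. It was a single peak in every library, 19143 and 18033 bp long for WT, 18379 and 17406 bp long for KO, with the tied score of 3100 in all 4. Among the peaks of each list it ranked between the 43rd and the 79th longest. Its KO mean was 96.3% of the WT mean. Unlike the longest region of the Mir181a-1 and Mir181b-1 window, it was not split in the KO libraries.

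The region at the left edge, chr11:87531549-87541929 (10381 bp), extends beyond the window. In KO replicate 1 it was 1 peak of 10337 bp, while the other libraries called 2 peaks there, with 8168 and 9141 bp covered in WT and 8382 bp in KO replicate 2. The middle region, chr11:87545139-87552083 (6945 bp), had 6945 and 5841 bp under WT peaks, and 6699 and 5866 bp under KO peaks. Its scores were 2647.4 and 1876.66 in WT and 2783.75 and 1765.35 in KO. In both regions the replicates of a genotype differed by more than the genotypes' means.

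Smc1a peaks covered 30.5% of the Mir142 window in replicate 1 and 28.9% in replicate 2, against 5.12% and 4.98% of the Mir181a-1 and Mir181b-1 window. Reproducible sites numbered 6, with a median length of 2402.5 bp, against 773 bp over the 14848 reproducible sites of the genome. The site chr11:87566395-87575371 (8977 bp) was the second longest of all. It was formed by 2 peaks in each replicate, whose best scores were 1729.18 and 684.4, and it lay at the right end of the longest acetylated region. H3K27ac was called over 8784 and 8343 bp of it for WT, and over 8715 and 7950 bp for KO. Directly to its left the site chr11:87561281-87566252 (4972 bp) was the 36th longest, with scores of 275.91 and 131.94.

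The sites chr11:87557904-87560127 (2224 bp, scores 144.22 and 75.02) and chr11:87546415-87548995 (2581 bp, scores 558.76 and 158.49) were also acetylated over their whole length in all 4 libraries. The last 2 sites had no H3K27ac call in any library. One, chr11:87553143-87553818 (676 bp, scores 315.05 and 60.38), lay in the gap between the middle and the longest acetylated region, 1059 to 1165 bp from the nearest H3K27ac peak. The other, chr11:87584103-87585517 (1415 bp), lay 8924 to 9758 bp to the right of the longest acetylated region. It had scores of 1123.58 and 485.6, which ranked 610th and 1172nd in their lists. Smc1a in this window was therefore called both under broad acetylation and at 2 sites outside it.

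In the Mir17hg window H3K27ac was hardly called. WT replicate 1, WT replicate 2 and KO replicate 1 had no H3K27ac peak in its 100001 bp. KO replicate 2 had 1 peak, chr14:115445905-115446636 (732 bp), with a score of 65.79, and 90.2% of the peaks of its list scored higher. The KO minus WT difference of 366 bp (exact two-sided permutation p = 1) rests on that peak and was 0 bp without KO replicate 2. The lists therefore give no reproducible H3K27ac call by which to describe Mir17hg in these cells, and whether the gene was active was not measured. Among 8792 genome tiles of this length with a peak of at least 1 library, 14.5% had both KO libraries below both WT libraries and 23.3% the reverse, and 8699 had a greater mean covered length. A further 17563 of 26355 tiles (66.6%) had no peak in any library, so a window of this length without a call is common.

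H3K27ac was called at some distance before the window, but not for a long way after it. The nearest H3K27ac peak before the window ended 40943 to 41023 bp away, and the nearest after it began 2997795 to 2998016 bp away, so the lists of the libraries without a peak inside had no call over at least 3138737 bp. The peak before the window was present in all 4 libraries at nearly the same place, 1809 to 1955 bp long, with scores of 546.55 and 228.37 in WT and 574.9 and 275.3 in KO. Smc1a had 1 reproducible site in the window, chr14:115416706-115417345 (640 bp), with scores of 191.71 and 56.94. It lay 67648 to 67728 bp from the nearest H3K27ac peak in the 3 libraries without a peak inside and 28559 bp in KO replicate 2. A second Smc1a peak, chr14:115441144-115441944 (801 bp, score 77.39), was called in replicate 1 alone and lay 3960 bp from the single H3K27ac peak of KO replicate 2.

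Over the 3 windows together there were 21 acetylated regions. A peak of all 4 libraries was present at 10 of them, against 49.6% of the 24430 regions of the genome. Calls in both WT and no KO library were found at 1 region, and the reverse at 0, against 2.33% and 2.82% of the genome's regions. Covered length was below both WT libraries in both KO libraries at 8 of the 21, all in the Mir181a-1 and Mir181b-1 window, against 15.9% of all regions. It was above at 0, against 17% of all regions. After covered lengths were divided by the total covered length of each library, KO lay below WT at 10 regions, again all in that window and with the same 8 among them, against 12.2% of all regions.

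Smc1a sites overlapped acetylation at most places in these windows. Of the 14 reproducible sites, 10 overlapped an H3K27ac peak in all 4 libraries and 3 in none, against 19.3% and 72.5% of the 14848 reproducible sites of the genome. The windows were proposed with such results known, so these counts describe them only. The exception between these classes was the seventh site of the Mir181a-1 and Mir181b-1 window, which had no peak in KO replicate 2. Smc1a was mapped in WT cells alone, so whether cohesin stayed at any of these sites after deletion was not measured.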

How the data were processed

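Peak lists of 6 ChIP-seq libraries were used, 4 for H3K27ac (2 WT, 2 KO) and 2 for Smc1a (WT). The 5 input libraries were not analysed here. Alignment was to mm9 with Bowtie 0.12.8, per the submitters' processing notes. Peak names point to MACS, per the file contents. The caller's version and settings, its input and any filters were not given in the sources used here. Each deposited list holds the peaks of 1 library, and its score column is the authors' own value for each peak. Peak numbers run without a gap in every list.

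Intervals were handled in Python 3.11.15 with numpy 2.4.6 and drawn with matplotlib 3.10.9. Covered length is the part of a window under merged peaks, with peaks that cross an edge counted to the edge. Regions are overlapping or touching H3K27ac peaks of the 4 libraries merged, and a library held a region from 1 bp of overlap. Coordinates count from 1. The background is all regions, or tiles of each window's length laid end to end along each chromosome with a peak in at least 1 library. Means over 2 libraries were compared with exact two-sided permutation tests. Alternatives were a stricter score, each library left out, the replicate number as a block, scaling to total covered length, wider windows, merging within 1000 bp, an overlap of at least 50% and lists of equal size. Interval functions and call rules were tested on simulated data. No 2 lists of a target had an identical peak.

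The members and lists were chosen with earlier results of these data known. The 2 longest regions of a window, regions of at least 1000 bp missing from a library and up to 5 of the longest reproducible Smc1a sites were to be named. The 4 further Smc1a sites and all values in 20 kb steps were chosen after values were seen. Gene lists for cell types and microRNA processing were not tested, since no mm9 annotation was used here.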

Additional observations from a re-analysis of the deposited data

How the results depend on the processing

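Over 18 results, 82 of 114 alternatives kept the direction, or stayed within 1.5 times a count or 1 SD of a share. The SD of a share is that between the 2 KO libraries, which is wide at Mir181a-1 and Mir181b-1. Some alternatives could not come out otherwise. The replicate block keeps each difference in covered length or peak number, and every H3K27ac library had 3 peaks at Mir142. The tally is therefore description only. The covered length of the Mir181a-1 and Mir181b-1 window was below WT in KO under all 9 alternatives run, but not all of these could come out otherwise. With 1 library left out it ran from -31498 to -12881 bp. Its sign was fixed there, since both KO libraries lay below both WT libraries. The replicate block gives the same mean difference by construction. The difference was -25285 bp with the upper 75% of each list by score. It was -25972.5 bp with equal numbers of peaks per list, an alternative chosen after seeing the data. With 2 libraries against 2 no result could pass 0.05.

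The sign of other differences depended on single libraries. At Mir142 the covered length difference ran from -1849 to 349 bp with 1 library left out, and it was above 0 without WT replicate 1 (349 bp) and without KO replicate 2 (131 bp). The peak number difference at Mir181a-1 and Mir181b-1 (1.5) ran from -2.5 to 5.5 with 1 library left out, at -2.5 without WT replicate 2, -2 without KO replicate 1, and it was -3 with the upper 75%. With peaks of a library within 1000 bp merged, that difference was 3 (exact two-sided permutation p = 0.333, the smallest possible). At Mir17hg the difference was 0 to 732 bp and 0 to 1 peaks with 1 library left out, and it was 0 bp and 0 peaks with the upper 75% and 0 bp with equal numbers of peaks.

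With 1 library left out, KO-only regions numbered 0 to 2, WT-only regions 1 to 4, regions with KO below WT 8 to 19 and with KO above WT 1 to 3 (0 with all 4 libraries), since fewer libraries then have to agree. The count of regions with KO below WT was 19 without WT replicate 2 and 13 without KO replicate 1. The upper 75% gave 6 regions called in all 4 libraries and 2 WT-only regions. Merging peaks within 1000 bp gave 5 regions called in all 4, 0 WT-only regions and 3 with KO below WT, since there are then fewer regions. Requiring 50% of a region to be covered left 6 called in all 4. Smc1a sites with the upper 75% numbered 4 at Mir181a-1 and Mir181b-1 and 0 at Mir17hg, and with 1 replicate alone 9 to 11 and 1 to 2 peaks.

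The labels do not say whether replicate numbers pair the libraries. The deviations of same-numbered WT and KO libraries correlated at r = 0.0283 over 24430 regions, across regions that are not independent. With 2 libraries a genotype this cannot show whether same-numbered libraries shared a litter or a day. With the replicate number as a block the differences were -22189.5 bp at Mir181a-1 and Mir181b-1, -750 bp at Mir142 and 366 bp at Mir17hg. They equal those without the block by construction. In both pairs 11 regions lay lower in KO, against 8 without the block, which is a stricter rule. The share of all regions lower in both pairs is not given here, so that count is description only.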

Other observations

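Outside the windows some H3K27ac peaks were called in 1 library or 1 genotype alone. WT replicates 1 and 2 each had a H3K27ac peak 1355 and 1024 bp before the Mir181a-1 and Mir181b-1 window (843 and 1087 bp long, scores 76.86 and 105.45), while the nearest KO peaks before it lay 65990 and 66996 bp away. After the window, WT replicate 2 alone had a peak 5405 bp away (1236 bp, score 68.56), against 94199 to 96453 bp in the other libraries. To the right of the Mir142 window both KO libraries had a weak peak 56305 and 56396 bp away, with scores of 60.09 and 51.82, and the nearest WT peaks lay 189026 and 189076 bp away. A Smc1a replicate 1 peak 4922 bp before the Mir142 window had a score of 1564.16, and it lay within the acetylated region that crosses that edge. These peaks were outside the rule and were looked at after the values were seen. Of all acetylated regions of the genome, 2.33% had a peak in both WT and no KO library, and 2.82% the reverse. The calls named here are therefore description only.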
